A study of Mus musculus with 15 samples.

Results

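The miRNAs described here are linked to p53, the transcription factor that answers DNA damage, and to cell stress. They are mmu-miR-34a-5p, mmu-miR-34b-3p and mmu-miR-34c-5p, mmu-miR-192-5p, mmu-miR-194-5p and mmu-miR-215-5p, and mmu-miR-210-3p. These 7 miRNAs were taken by name from the 1915 mature miRNAs in the deposited table. No value entered the rule, but the list was chosen with earlier results of these data known. Of the 7, 5 had enough counts to be tested, among 351 miRNAs in all, and miR-34b-3p and miR-215-5p fell below the low-count filter. Small RNA was sequenced from pancreatic acini, the exocrine cell clusters that secrete digestive enzymes, of C57BL/6 mice aged 7 to 8 weeks. There were 5 groups of 3 libraries: control acini with no agent, caerulein at 100 nM, caerulein at 100 pM, TLC-S at 250 µM and TLC-S at 62.5 µM. Caerulein stimulates the cholecystokinin receptor of acinar cells, with the higher dose described as pathological and the lower as physiological. TLC-S is taurolithocholic acid sulfate, a bile acid that injures acini. The protocol describes pooling RNA of several acinar preparations but does not tie preparations to libraries. Every p-value here therefore measures only the spread between libraries, and that spread may be technical.

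A miRNA silences mRNAs that pair with its seed, bases 2 to 8 from the 5′ end, so miRNAs with the same seed share many targets. p53 binds near the miR-34a gene and the miR-34b/c gene and activates them, and their products repress cell-cycle and survival genes such as Bcl2 and Met. The miR-192, miR-194 and miR-215 clusters also respond to p53 and are known for high levels in liver and gut epithelium. miR-210 is induced by hypoxia-inducible factor and represses genes of mitochondrial respiration. Acinar injury in pancreatitis involves cell stress and cell death, the setting in which these miRNAs are of interest.

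The mature sequences are shown because the seeds group the 7 miRNAs and explain which of them can be told apart. They are from RefSeq on GRCm38.p6, which held 6 of the 7, and capitals mark the seed.
miR-34a-5p: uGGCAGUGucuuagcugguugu
miR-34b-5p: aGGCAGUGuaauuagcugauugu
miR-34b-3p: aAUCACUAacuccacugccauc
miR-192-5p: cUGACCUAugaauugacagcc
miR-215-5p: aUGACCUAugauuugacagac
miR-194-5p: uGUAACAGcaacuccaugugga
miR-210-3p: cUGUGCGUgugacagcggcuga
The seed GGCAGUG of miR-34a-5p recurs in miR-34b-5p, miR-449a-5p and miR-449c-5p. The member miR-34b-3p comes from the opposite arm and has another seed, AUCACUA, which miR-34c-3p shares. miR-192-5p and miR-215-5p share the seed UGACCUA and differ, counting positions from 1 at the 5′ end of miR-192-5p, by C1A, A12U and C20A. miR-194-5p and miR-210-3p share their seeds with no other mature miRNA in that table. The Mir34c hairpin also carries GGCAGUG, in capitals here.
Mir34c hairpin: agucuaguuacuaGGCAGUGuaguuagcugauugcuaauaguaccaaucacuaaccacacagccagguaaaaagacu

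The genes lie at 5 loci of GRCm38 (annotation GENCODE M21). Mir34a is at chr4:150068454-150068555 on the plus strand, in an exon of Gm37795, an annotated transcript that awaits experimental proof. Mir34b (chr9:51103562-51103645) and Mir34c (chr9:51103034-51103110) lie next to each other on the minus strand, opposite an intron of Btg4. Mir192 (chr19:6264844-6264932) and Mir194-2 (chr19:6264643-6264728) lie next to each other on the plus strand, outside other annotated genes. Mir215 (chr1:185313581-185313692) and Mir194-1 (chr1:185313319-185313385) lie 195 bases apart on the plus strand in the noncoding gene 2010103J01Rik, Mir215 in an exon and Mir194-1 in an intron, both opposite an intron of Iars2. Mir210 is at chr7:141221384-141221493 on the minus strand, outside other annotated genes. Because Mir194-1 and Mir194-2 give the same 5p sequence, miR-194-5p sums both loci.

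Levels are given as CPM, counts scaled to library size with TMM factors. The mature miRNAs printed above are 21 to 23 bases long, so levels are compared without scaling for length. Over the 15 libraries, miR-34a-5p averaged 666 ± 214.5 CPM (SD, n = 15), miR-192-5p 626 ± 144.1, miR-194-5p 302 ± 62.9, miR-210-3p 47.6 ± 11.2 and miR-34c-5p 25.1 ± 7.97. In the mean of the control libraries, miR-34a-5p ranked 69, miR-192-5p 72, miR-194-5p 94 and miR-210-3p 172 of 351. The first neighbours in this order were not separated: miR-34a-5p exceeded miR-192-5p in 9 of 15 libraries. Each later step held in 15 of 15 libraries, from miR-192-5p to miR-194-5p, to miR-210-3p, to miR-34c-5p. All 5 tested miRNAs had counts in every library.

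Total counts per library ran from 535473 to 5087728 (median 1953104). miR-148a-3p, the leading acinar miRNA, held 17.6% to 50.5% of counts in a library, and 4 of 4 acinar markers passed the filter. The liver and gut markers miR-122-5p and miR-31-5p summed to 13.8 to 48.3 CPM across libraries, with miR-122-5p at 2.76 CPM or more. Both passed the filter, and their part in the levels of miR-192-5p and miR-194-5p was not tested. Islet markers (3 of 3 tested), led by miR-375-3p, summed to 79257 to 142210 CPM and mesenchymal markers (4 of 4 tested), led by miR-143-3p, to 7826 to 17220 CPM. The endothelial markers (2 of 2 tested) summed to 6721 to 8514 CPM in control. They summed to 3401 to 6247 CPM with caerulein at 100 nM and 4182 to 6674 CPM with TLC-S at 62.5 µM, neither of which overlapped control. Of all tested miRNAs taken singly, 6.55% and 12.3% did not overlap control in these 2 comparisons. With TLC-S at 62.5 µM the log2 differences of the 2 markers were -0.58 and -0.41, and 0 passed the test. With caerulein at 100 nM miR-126a-3p was at -0.71 (adjusted p = 0.984, edgeR) and miR-126a-5p at -0.90 (adjusted p = 0.424), and their part in the members' values was not tested. With caerulein at 100 pM and TLC-S at 250 µM the endothelial sums overlapped those of control. In such bulk samples, a change in the number of cells of a type and a change in RNA per cell cannot be told apart.

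Of the miR-34 family, the member from its own locus, miR-34a-5p, had the most counts. In control it stood at 931, 727 and 465 CPM in replicates 1, 2 and 3. With caerulein at 100 nM it stood at 1026, 758 and 493 CPM, and at 100 pM at 850, 497 and 424 CPM. The control range and both caerulein ranges overlapped throughout. With TLC-S at 250 µM it stood at 789, 942 and 399 CPM, and at 62.5 µM at 391, 670 and 622 CPM. These ranges overlapped the control range as well, and libraries of 1 group differed by up to 2.36-fold.

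miR-34c-5p, from the miR-34b/c cluster, stood at 20.8, 30.7 and 21.0 CPM in control. With caerulein it stood at 20.6, 31.5 and 38.0 CPM at 100 nM and at 25.8, 19.7 and 22.98 CPM at 100 pM. With TLC-S it stood at 11.02, 38.2 and 24.6 CPM at 250 µM and at 12.6, 30.1 and 28.3 CPM at 62.5 µM. Its lowest and highest levels, 11.02 and 38.2 CPM, were thus both in the TLC-S 250 µM group, and every group overlapped control. These levels rest on 14 to 202 counts per library, 812 in all.

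Adding up the miRNAs that carry GGCAGUG (miR-34a-5p, miR-34b-5p, miR-34c-5p and the miR-449 relatives), miR-34a-5p held 95.5% ± 1.604 of the counts (SD, n = 15; range 92.5% to 98.4%) and miR-34c-5p 3.87% ± 1.48. The group means of the miR-34a-5p share lay between 95.2% and 95.7%. The ratio of miR-34a-5p to miR-34c-5p counts within a library varied more, from 12.96 to 71.6. It was highest in replicate 1 in 5 of 5 groups, at 44.7 in control, 49.9 and 32.9 with caerulein at 100 nM and 100 pM, and 71.6 and 31.2 with TLC-S at 250 µM and 62.5 µM. Each replicate number is a separate run of codes in the sample titles, and each run holds 1 library of every group. The labels do not say what the libraries of a run share, and the part of the replicate number in this was not tested. The miR-449 relatives, which mark multiciliated cells, were scarce: miR-449a-5p had 26 counts over 10 libraries, and miR-449b and miR-449c-5p had 0.

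miR-34b-3p gave 12 counts in all, in 6 libraries, with at most 4 in a library. By group these were 1 in control, 4 and 1 with caerulein at 100 nM and 100 pM, and 4 and 2 with TLC-S at 250 µM and 62.5 µM. A count of 0 allows up to 3 counts, or 0.565 to 5.25 CPM depending on the library, so no difference was detectable at this depth. The other arm of that hairpin, miR-34b-5p, had 102 counts, 89.5% of the 114 counts from the hairpin (exact binomial 95% interval 82.3% to 94.4%, which covers counting error only). The other hairpins were still more one-armed, with 99.7% of miR-34a counts (19606 against 61) and 812 of 814 miR-34c counts on the 5p arm. Of the 61 counts of miR-34a-3p, 1 was in control and 14 and 16 with caerulein at 100 nM and 100 pM. With TLC-S at 250 µM and 62.5 µM there were 10 and 20. No library had more than 12, and no test of this difference is given here. The deposited counts per precursor were fractional in 8 of 15 libraries for both miR-34c-5p and miR-34b-5p, so reads may have been divided between such similar miRNAs, which was not tested.

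**Figure D1:**
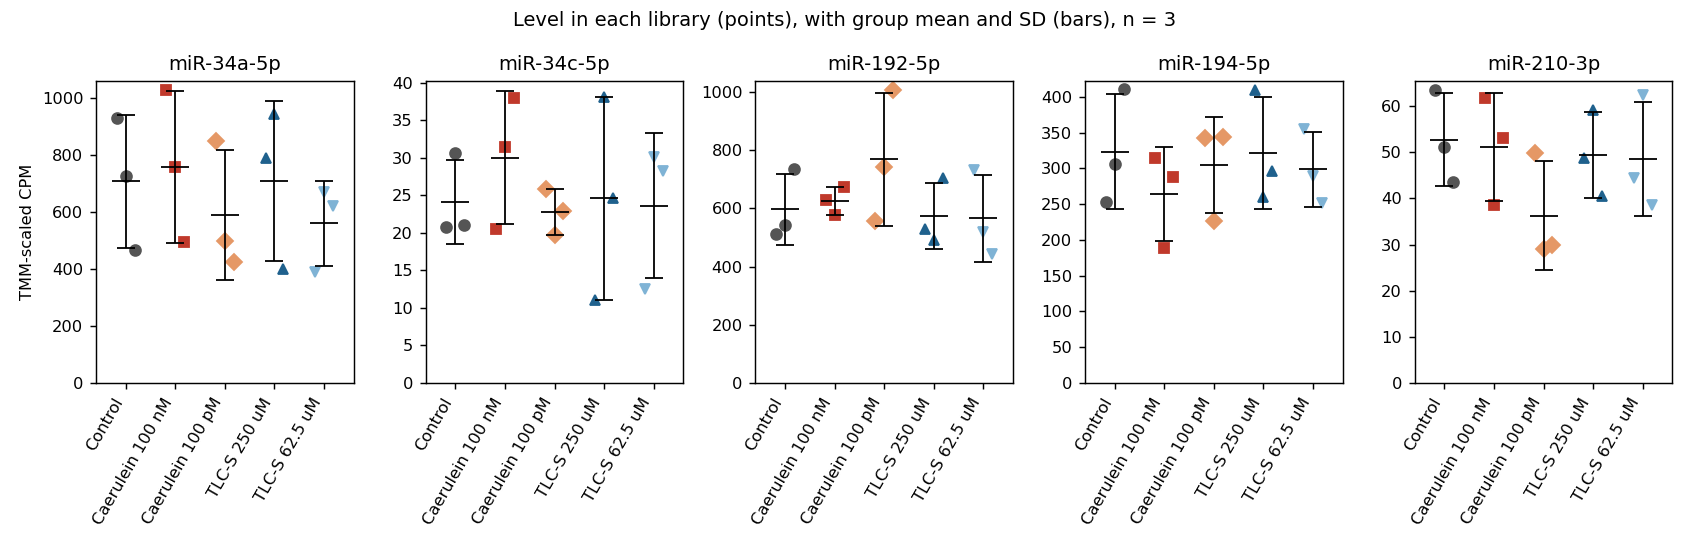
Level of each tested miRNA in TMM-scaled CPM (vertical axis, starting at 0) in the 5 groups, where each point is a library and the bars give the group mean and SD (n = 3). For miR-34a-5p the control libraries span 465 to 931 CPM, and each treated group overlaps that range. miR-210-3p with caerulein at 100 pM has 2 libraries, at 28.9 and 29.9 CPM, under the lowest control at 43.5 CPM.

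miR-192-5p, which shares its seed with miR-215-5p, stood at 512, 541 and 736 CPM in control. With caerulein it stood at 629, 576 and 672 CPM at 100 nM and at 555, 741 and 1008 CPM at 100 pM. With TLC-S it stood at 528, 493 and 704 CPM at 250 µM and at 733, 520 and 442 CPM at 62.5 µM. The highest levels, 741 and 1008 CPM, were 2 of the 3 libraries with caerulein at 100 pM, both above the highest control, while the third lay within the control range. The other arm, miR-192-3p, had 94 counts in 14 libraries, at most 17 in each. With caerulein at 100 pM it stood at 1.72, 1.23 and 1.15 CPM, on 3, 2 and 1 counts. These lay under control, at 5.33, 6.36 and 2.39 CPM, where 10.3% of tested miRNAs did not overlap. The other groups overlapped control, and no test of this arm is given here. Within groups, the log2 level of miR-192-5p had an SD of 0.31, against a median of 0.44 over all tested miRNAs and 0.53 for miR-34a-5p. It was among the steadier miRNAs, at percentile 22.8 of that spread, with miR-210-3p at 26.5 and miR-194-5p at 26.8, while miR-34a-5p was at 65.5 and miR-34c-5p at 68.1.

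miR-194-5p, made from both clusters, stood at 253, 306 and 411 CPM in control. With caerulein it stood at 314, 189 and 289 CPM at 100 nM and at 343, 227 and 344 CPM at 100 pM. With TLC-S it stood at 409, 259 and 296 CPM at 250 µM and at 355, 289 and 252 CPM at 62.5 µM. The lowest libraries, 189 and 227 CPM, were replicate 2 of the caerulein groups, and every group overlapped control.

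The sequences printed above allow the 2 source clusters to be compared. miR-215-5p had 7 counts in 5 libraries and at most 2 in a library, against 19122 counts of miR-192-5p. It made up 0.0366% of their sum (exact binomial 95% interval 0.0147% to 0.0754%), and no library had a level above the 3-count floor. Its 7 counts were 1 in control, 1 and 2 with caerulein at 100 nM and 100 pM, and 1 and 2 with TLC-S at 250 µM and 62.5 µM. The 3p arms of the miR-194 hairpins differ by A8G, C19U, U20C and C22G, counting from the 5′ end of miR-194-1-3p, and all 46 counts were of the chromosome 19 form.
miR-194-1-3p: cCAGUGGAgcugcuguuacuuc
miR-194-2-3p: cCAGUGGGgcugcuguuaucug
These are shown because the 3p arm, unlike the 5p arm, tells the loci apart, and capitals again mark the seed. For miR-194-1-3p, 0 of 46 counts allows a share of up to 6.52%. The deposited counts nevertheless assigned 54.6% to 59.8% of miR-194-5p per library to the chromosome 19 precursor and the rest to chromosome 1, where the 5p sequences are identical. In the 3p arm and in miR-215-5p alike, few or no counts came from the chromosome 1 cluster.

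Where both miRNAs had enough counts, their ratio within a library was compared, a measure free of scaling between libraries. The ratio of miR-194-5p to miR-192-5p was 0.539 ± 0.039 in control (SD, n = 3), 0.419 ± 0.0858 with caerulein at 100 nM, 0.421 ± 0.171 at 100 pM, 0.574 ± 0.182 with TLC-S at 250 µM and 0.537 ± 0.0452 at 62.5 µM. With caerulein at 100 nM the libraries were at 0.499, 0.328 and 0.429 against 0.494, 0.565 and 0.558 in control, so 2 of 3 lay under every control. Over the 5 groups the exact permutation test of the log2 ratio gave p = 0.350 (F statistic, 1401400 ways to divide the libraries). Against control, the exact two-sided permutation p was 0.2 for caerulein at 100 nM, 0.4 at 100 pM, 0.9 for TLC-S at 250 µM and 0.8 at 62.5 µM, where the smallest possible with 3 against 3 is 0.1. Adjusted over the 4 comparisons these were 0.8, 0.8, 0.9 and 0.9. The other 4 ratios considered, such as that of miR-215-5p to miR-192-5p, had too few counts to be given.

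**Figure D2:**
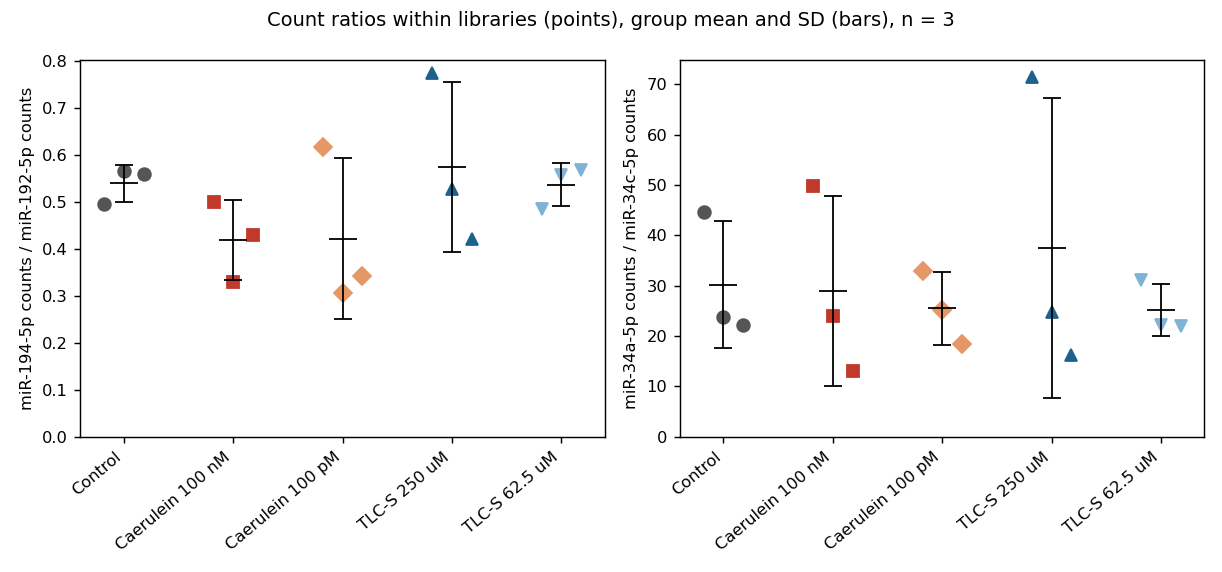
Ratio of counts within each library for miR-194-5p over miR-192-5p (left axis) and miR-34a-5p over miR-34c-5p (right panel), both unitless and starting at 0, with points for libraries and bars for the group mean and SD (n = 3). The left ratio lies between 0.306 and 0.775 and the right one between 12.96 and 71.6, with replicate 1 (the left point of each group) highest in every group on the right.

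miR-210-3p, the hypoxia miRNA, stood at 63.5, 51.2 and 43.5 CPM in control. With caerulein it stood at 61.7, 38.5 and 53.1 CPM at 100 nM and at 49.9, 28.9 and 29.9 CPM at 100 pM. With TLC-S it stood at 48.8, 59.1 and 40.5 CPM at 250 µM and at 44.4, 62.3 and 38.6 CPM at 62.5 µM. At 100 pM caerulein 2 of 3 libraries were under every control library, and the third lay within the control range. The 3p arm held 1519 of 1532 counts from its hairpin, 99.2%, and miR-210-5p had 13 counts in 5 libraries.

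Each treated group was compared with control, and the doses with each other, by edgeR's quasi-likelihood test adjusted over 351 miRNAs at a threshold of 0.05. With caerulein at 100 nM, 0 of 5 tested members passed, where 0% of all tested miRNAs did, and 0 of 5 had groups that did not overlap, where 6.55% did. The largest difference in size was that of miR-34c-5p, at 0.31 on the log2 scale (SE 0.41, 95% interval -0.53 to 1.16, adjusted p = 0.984). Leaving out 1 library moved it between 0.05 (without caerulein 100 nM replicate 3) and 0.56 (without caerulein 100 nM replicate 1). For miR-194-5p it was -0.28 (SE 0.28, interval -0.85 to 0.28), and -0.06 without control replicate 3 or -0.12 without caerulein 100 nM replicate 2. miR-34a-5p was at 0.10, miR-192-5p at 0.07 and miR-210-3p at -0.02.

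With caerulein at 100 pM, 0 of 5 passed (0% of all), and 0 of 5 did not overlap control (10.3% of all). The log2 difference of miR-210-3p was -0.53 (SE 0.32, interval -1.18 to 0.13, unadjusted p = 0.109, adjusted p = 0.886), the largest in size of all 30 comparisons of a member, and -0.80 without replicate 1 of this group. Its mean level was 36.2 ± 11.9 CPM against 52.7 ± 10.1 in control (SD, n = 3). miR-192-5p was at 0.36 (SE 0.26, interval -0.18 to 0.91, adjusted p = 0.942), between 0.15 without replicate 3 and 0.59 without replicate 1 of this group, with 768 ± 227 against 596 ± 121.8 CPM. miR-34a-5p was at -0.26, and miR-34c-5p and miR-194-5p at -0.09 each. Scaling by library totals in place of TMM moved the median of all miRNAs in this comparison by -0.24. With library totals miR-34c-5p was at -0.34 and miR-194-5p at -0.26, so both kept their sign. No member's difference here has a settled direction, since the intervals include 0.

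With TLC-S at 250 µM, 0 of 5 passed (0% of all) and 0 of 5 did not overlap (7.12% of all). All 5 log2 differences were near 0, from -0.10 for miR-210-3p to 0.03 for miR-34c-5p. miR-34a-5p was at 0.00 (SE 0.34), with 710 ± 280 against 707.8 ± 234 CPM, and its interval of -0.70 to 0.70 still allows changes of that size. With TLC-S at 62.5 µM, 0 of 5 passed (0.57% of all) and 0 of 5 did not overlap (12.3% of all). The 5 differences were negative, from -0.34 for miR-34a-5p (SE 0.34, interval -1.04 to 0.36, adjusted p = 0.881) to -0.04 for miR-34c-5p. Without control replicate 1 the difference of miR-34a-5p was -0.06, and without TLC-S 62.5 µM replicate 1 it was -0.12. The comparisons with control share the same 3 control libraries.

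Between doses of an agent, 0 of 5 passed for caerulein (0% of all), with 0 of 5 not overlapping (5.7% of all). The higher dose minus the lower gave 0.51 for miR-210-3p (SE 0.32, interval -0.15 to 1.17, adjusted p = 0.986), 0.40 for miR-34c-5p and 0.36 for miR-34a-5p, against -0.29 for miR-192-5p and -0.20 for miR-194-5p. Library totals moved the median of all miRNAs in this comparison by 0.29. For TLC-S, 0 of 5 passed (1.14% of all) and 0 of 5 did not overlap (12% of all), with differences from 0.02 for miR-210-3p to 0.34 for miR-34a-5p, the latter between 0.07 and 0.61 when 1 library was left out (TLC-S 250 µM replicates 2 and 3). In an F test over the 5 groups, 0 of 5 passed (0.855% of all), with adjusted p = 0.980 for miR-34a-5p, miR-192-5p, miR-194-5p and miR-210-3p and 0.984 for miR-34c-5p.

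In total, 0 of 30 member comparisons passed, 0 had an unadjusted p under 0.05 by edgeR, and DESeq2 called 0 as well. The 95% intervals included 0 in 30 of 30. They reached at most from -1.18 to 1.27, so a change of 2.42-fold in miR-34c-5p, the scarcest, could not be told from none, and for miR-194-5p the widest bound was 1.80-fold.

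**Figure D3:**
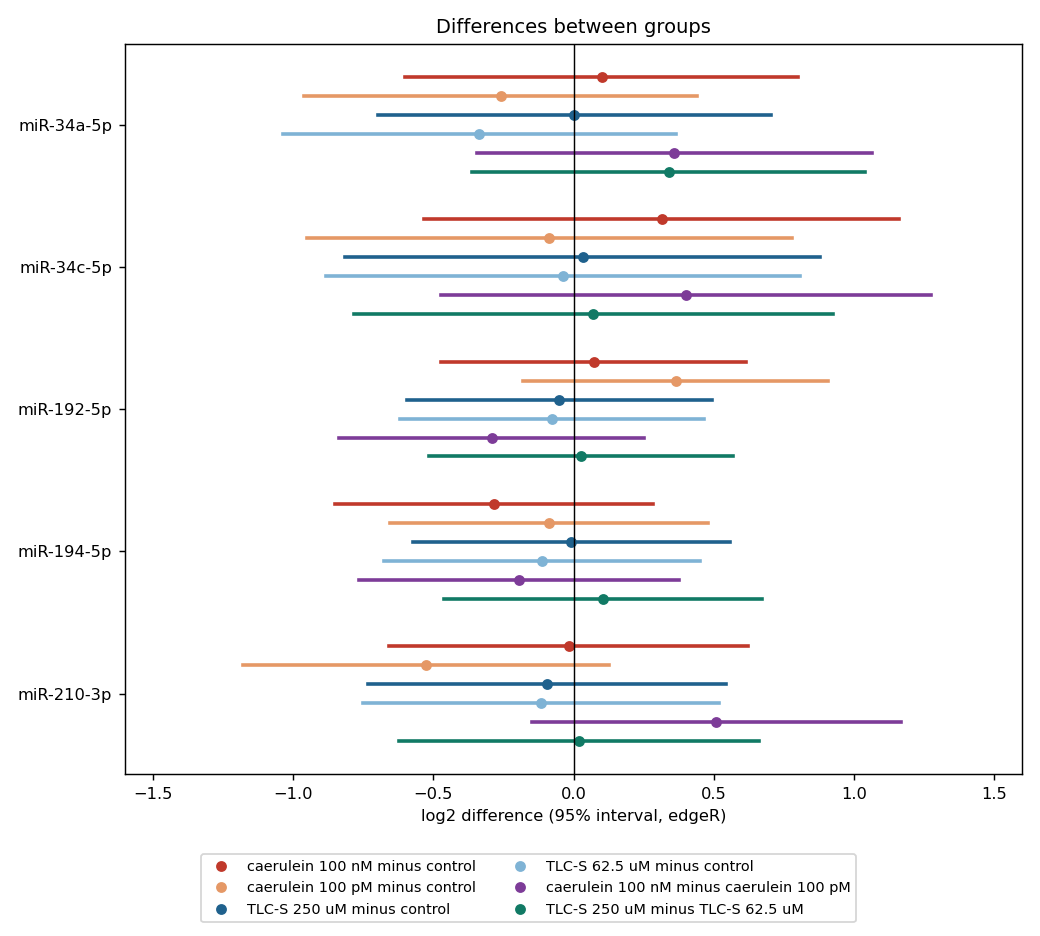
Log2 difference (horizontal axis) of each tested miRNA in 6 comparisons, with dots for the edgeR estimate and lines for its 95% interval, where 0 is the vertical line. All 30 intervals cross 0, and the estimate farthest from it is -0.53, for miR-210-3p with caerulein at 100 pM against control.

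In each of the 5 groups, the library with the lowest level of miR-34a-5p had the highest level of miR-192-5p. The ratio of their counts ran from 0.421 to 1.91, with a gap between 0.734 and 1.29. In 6 libraries it was below the gap, with miR-34a-5p at 391 to 497 CPM and miR-192-5p at 672 to 1008 CPM. In the other 9 it was above, with miR-34a-5p at 622 to 1026 CPM and miR-192-5p at 442 to 629 CPM. The 6 were replicate 3 of control, of caerulein 100 nM and of TLC-S 250 µM, replicates 2 and 3 of caerulein 100 pM and replicate 1 of TLC-S 62.5 µM, so each of the 5 groups had at least 1. Replicate 3 was below the gap in each group except TLC-S at 62.5 µM, and the part of the replicate number was not tested. This division was found from the values themselves and is a description of the libraries.

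Correlations of log2 levels across the 15 libraries were computed for 15 relations, the 10 pairs of tested members and the share of miR-148a-3p with each member, with p-values adjusted over the 15. All rest on the same libraries and the same scaling. Each permutation shuffled the 15 libraries freely, so groups and replicate numbers were not held fixed. For miR-34a-5p and miR-192-5p, Pearson's r was -0.71 (permutation p = 0.00258, adjusted 0.0387) and Spearman's rho -0.65 (permutation p = 0.0112, adjusted 0.0844). Without the 2 libraries farthest from the median of miR-34a-5p, r was -0.69, and with each group's mean removed it was -0.84. miR-34a-5p and miR-210-3p varied in the same direction, with r = 0.64 (permutation p = 0.0103, adjusted 0.0387), rho = 0.58 (permutation p = 0.0269, adjusted 0.0995) and r = 0.70 without those 2 libraries.

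The share of counts held by miR-148a-3p moved with both miR-34a-5p and miR-192-5p, in opposite directions. With miR-34a-5p, r was -0.66 (permutation p = 0.00559, adjusted 0.0387), rho -0.59 (permutation p = 0.0231, adjusted 0.0995), and r was -0.59 without the 2 libraries farthest from the median share. With miR-192-5p, r was 0.65 (permutation p = 0.00863, adjusted 0.0387), rho 0.67 (permutation p = 0.00741, adjusted 0.0844), and r was 0.73 without those 2 libraries. These 4 of the 15 relations passed by Pearson's r, and 0 of 15 passed by Spearman's rho. How often other miRNAs reach such values in these libraries was not computed, so the relations cannot be called particular to the members. Whether the share of miR-148a-3p accounts for the relation between miR-34a-5p and miR-192-5p was not tested.

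**Figure D4:**
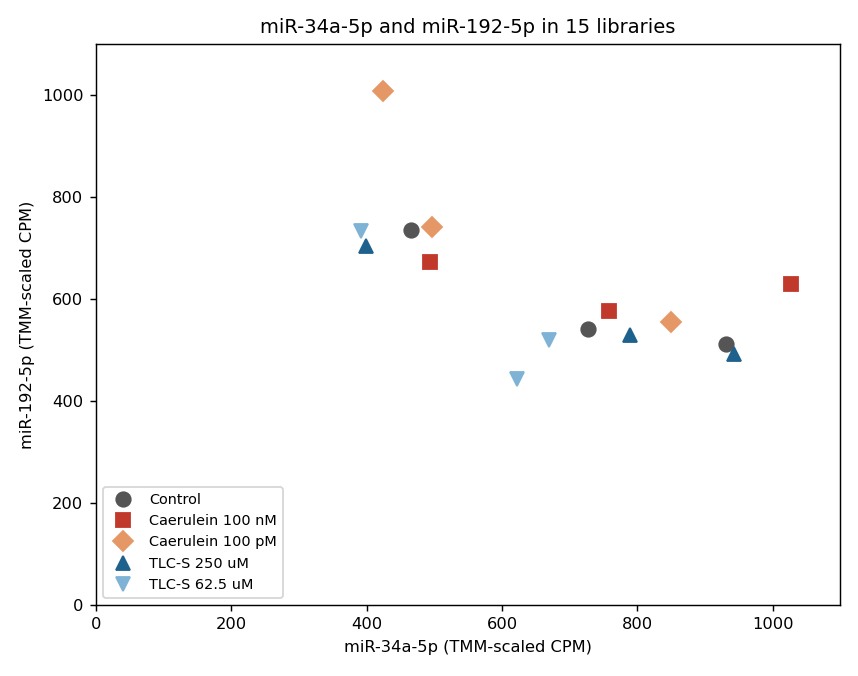
Level of miR-192-5p against miR-34a-5p in TMM-scaled CPM (both axes start at 0), where each point is a library and shapes and colours give the 5 groups. The 6 points at upper left, from 391 to 497 CPM of miR-34a-5p, hold libraries of all 5 groups.

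For the clustered pair miR-192-5p and miR-194-5p, Pearson's r was 0.30 (permutation p = 0.280, adjusted 0.449) and Spearman's rho 0.35 (permutation p = 0.196, adjusted 0.267). Without the 2 libraries farthest from the median of miR-192-5p, r was 0.16, and with each group's mean removed it was 0.42. A relation between these 2 miRNAs was not detected. The other pairs of members had adjusted Pearson p-values of 0.0637 (miR-192-5p and miR-210-3p, r = -0.59) and above.

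The miRNAs whose log2 levels across the 15 libraries were most like a member were found by Pearson's r, given with no test since all share the libraries and their scaling. For miR-34a-5p they were miR-29c-3p (0.87), miR-362-5p (0.82) and miR-652-3p (0.81). For miR-192-5p they were miR-21a-5p (0.85), miR-151-3p (0.77) and miR-148b-3p (0.75), and for miR-194-5p miR-17-5p (0.79), miR-125a-5p (0.71) and miR-27a-3p (0.68). For miR-34c-5p they were miR-127-5p (0.81), miR-29a-5p (0.76) and miR-16-1-3p (0.73), and for miR-210-3p miR-154-5p (0.84), miR-365-3p (0.78) and miR-15a-5p (0.76). Members were left out of this search, so it cannot show how near the cluster partners miR-192-5p and miR-194-5p are to each other.

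Other miRNAs of these pathways did not pass the test either, where 0% to 1.14% of all tested miRNAs passed in a comparison. Of 8 further p53-linked miRNAs, including miR-145a-5p, miR-15a-5p and miR-16-5p, 8 were tested and 0 passed in either direction in the 6 comparisons. The medians of their log2 differences lay between -0.16 and 0.19. Of 4 miRNAs that target p53 mRNA, 3 were tested (miR-125b-5p, miR-30d-5p and miR-25-3p) with 0 called in either direction, and miR-504-5p had no count. The 3 were all positive with TLC-S at 62.5 µM against control (median 0.32). All were negative for TLC-S at 250 µM minus 62.5 µM (median -0.49), which shares the 62.5 µM libraries. In the other comparisons their signs were mixed. Of 7 hypoxia-linked miRNAs, which include miR-26a-5p, miR-26b-5p and miR-24-3p, 7 were tested and 0 called, with medians from -0.37 to -0.04. The farthest of these from 0 was miR-26a-5p with TLC-S at 62.5 µM, at -0.73 (SE 0.33, adjusted p = 0.648, edgeR). Of 4 miRNAs linked to the unfolded protein response, the answer to misfolded proteins in the endoplasmic reticulum, 3 were tested and 0 called. In that list miR-708-5p was at 1.23 with TLC-S at 62.5 µM (SE 0.51, adjusted p = 0.533, edgeR) and miR-204-5p at -1.25 with caerulein at 100 pM (SE 0.48, adjusted p = 0.722), and miR-30c-2-3p at -0.43 with TLC-S at 62.5 µM (SE 0.26).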

How the data were processed

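Small RNA from 15 libraries of mouse pancreatic acini was sequenced after mirVana isolation of total RNA, per the labels. The tools named are cutadapt and Bowtie, with builds GRCm38 and mm10, per the submitters' processing notes. Neither tool versions nor a counting tool is given in the sources used here. Estimated counts (expected counts) of each mature miRNA were deposited by the authors, already whole and within 0.5 of the sums of the deposited counts per precursor, some of them fractional. The deposited RPM values served only for limma. Groups come from the sample titles, and replicates are numbered in the order of the titles' codes.

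All 15 libraries entered 1 edgeR 4.0.16 model of 5 group means (R 4.3.3; TMM, filterByExpr with a minimum count of 10 and total of 15, glmQLFit, glmQLFTest, Benjamini-Hochberg over 351 miRNAs), tested on simulated data. Levels are TMM-scaled CPM. Log2 ratios had 0.5 added to each count and were tested by exact permutation in SciPy 1.17.1. Within groups, library pairs differed beyond sampling noise (chi-square over degrees of freedom from 62.1 to 1842), so none was counted as a copy of another. This check cannot tell technical repeats from separate acinar preparations, because making a library adds spread of its own. The 7 members, the pathway and marker lists, the tests and the alternatives were chosen with earlier results of these data known. The rule named all 7 members, and other arms and seed relatives with counts in at least 3 libraries. It also named the 3 non-member miRNAs most like each tested member. From each pathway list it named up to 3 miRNAs with the smallest p in the F test. Outside this rule, miR-34c-3p, miR-194-1-3p, miR-449b, miR-449c-5p, miR-504-5p and marker miRNAs were named as values. The alternatives tried were scaling by RLE, by upper quartile or by library totals, no filter, a CPM filter (mean at least 10), DESeq2 1.42.0, limma 3.58.1 on log2 of RPM plus 1 or 10, the 2 groups alone, a replicate block and leaving out each library. Figures used matplotlib 3.10.9.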

Additional observations from a re-analysis of the deposited data

How the results depend on the processing

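Under every alternative run, 0 members passed in each comparison and in the F test, replicate block included. Over 25 settings there were 750 values of the 30 member differences, of which 95 changed sign; none had an adjusted p under 0.05, and the smallest was 0.424. Sign changes occurred only among differences of at most 0.29 in the main analysis, and a change of sign in a difference that was not called was not counted as a reversal. The log2 difference of miR-210-3p with caerulein at 100 pM ranged from -0.80 to -0.36, and that of miR-192-5p from 0.12 to 0.59. The exact p of the miR-194-5p to miR-192-5p ratio was 0.350 with 1 added to each count. With the replicate block the number of all miRNAs called with TLC-S at 62.5 µM was 5 against 2 without it, and 6 against 3 in the F test, with 0 members among them. Deviations of libraries with the same number correlated from -0.12 to 0.40, with medians of 0.23, 0.03 and 0.15 for replicates 1, 2 and 3. For replicate 1 all were positive, from 0.03 to 0.33. The numbers were not taken to pair the libraries, and whether they mark a shared preparation was not tested. Counts over all miRNAs moved with TLC-S at 62.5 µM (2) to 5 without a filter, 4 by DESeq2, 1 with library totals and 0 by limma with a pseudocount of 1 or with the 2 groups alone. Between the TLC-S doses (4) they moved to 2 with RLE or upper quartile scaling, 1 with a filter at a mean of 10 CPM and 0 by limma with a pseudocount of 1. In the F test (3) they moved to 10 without a filter, 7 by DESeq2 and 1 with the CPM filter or by limma with a pseudocount of 1, and with caerulein at 100 nM (0) DESeq2 called 1. Leaving out 1 library moved the count with TLC-S at 62.5 µM to 1 (control replicate 3, TLC-S 62.5 µM replicates 1 and 3), the count between TLC-S doses to 1 or 2 (12 of 15 libraries) and the F test to 1 (caerulein 100 nM replicates 1 and 2, TLC-S 250 µM replicates 2 and 3, and each TLC-S 62.5 µM replicate), with 0 members called throughout. Depth limits miR-34b-3p and miR-215-5p, which were compared only without the filter. There their unadjusted edgeR p-values ran from 0.337 to 0.888, and at this depth such tests could show little.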
